A study of Mus musculus with 48 samples.

Results

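The genes described here encode 9 nuclear receptors of liver metabolism other than the liver X receptors (LXRs): the bile acid receptor FXR (Nr1h4) and its partner SHP (Nr0b2), the xenobiotic receptors PXR (Nr1i2) and CAR (Nr1i3), the fatty acid receptors PPARα (Ppara) and PPARδ (Ppard), the estrogen-related receptor ERRα (Esrra), the clock receptor RORα (Rora) and the thyroid hormone receptor TRβ (Thrb). They were chosen by name and found by their Ensembl identifiers among the 55416 genes of the count files. All 9 passed the filter on low counts, which left 15711 genes for testing. Livers were taken from mice labelled C57Bl/6J at 16 weeks of age, after 8 weeks of western diet, a feed rich in fat and cholesterol that every group received. One study used mice with a knock-in allele of LXRα (gene Nr1h3), made with CRISPR-Cas9, that replaces a tryptophan in the ligand-binding domain with an arginine and acts as a dominant negative (DN). The other used mice with an LXRα knockout allele (KO). Each study held wild-type (WT), heterozygous (HET) and homozygous (HOM) animals, 8 labelled livers in each of the 6 groups.

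Both alleles were present in all tissues and not in the liver alone. The knock-in mice were males from crosses of heterozygous parents. The knockout line came from a mixed Sv129 and C57Bl/6 background, was backcrossed, and was kept at a different site. The main text describes the knockout experiment as a repeat of the knock-in one, with no separate statement of sex. The paper refers to its figure legends for the sex of animals, and the extended data legends were not read here. Site, colony and study cannot be told apart in any comparison across studies. In bulk liver RNA, fewer cells of a type and less RNA per cell cannot be told apart either.

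Nuclear receptors bind small lipophilic ligands and regulate genes from DNA elements built of the half-site AGGTCA, mostly as heterodimers with the retinoid X receptor RXR. ERRα and RORα bind DNA without RXR, and SHP has no DNA-binding domain and acts by binding other receptors. In the liver FXR restrains bile acid synthesis in part through induction of SHP, PXR and CAR induce drug-metabolising cytochromes P450, PPARα drives fatty acid oxidation in fasting, ERRα drives mitochondrial genes, RORα activates clock and lipid genes, and TRβ conveys the thyroid hormone signal on cholesterol and lipid metabolism. LXRα, the sterol receptor altered in these mice, shares RXR and many coregulators with them.

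Between 5332897 and 16961379 reads were assigned to genes per liver, with a median of 15879972, and 2 livers lay under 10000000 (KO:HET animal 3 and KO:HOM animal 17). Counts were divided by library size to give CPM, the counts in every 1000000 reads, after scaling with the trimmed mean of M-values (TMM). The targeted gene Nr1h3 lay between 80.9 and 109 CPM in KO:WT livers, between 48.1 and 65.9 in KO:HET and between 24.8 and 30.9 in KO:HOM, with no overlap between the 3 groups. The knock-in changes the protein and gene counts do not read the substitution itself, but Nr1h3 lay between 68.8 and 77.3 CPM in 7 DN:HOM livers and between 82.1 and 96.1 in 7 DN:WT livers, without overlap. This lower level depended on the scaling, with a log2 fold change of -0.32 (TMM) and 0.11 with library size alone. The libraries labelled DN:WT animal 10 and DN:HOM animal 12 stood apart from their groups and went against their labels in this gene too on the TMM scale, at 71.3 and 86.9 CPM. The summed level of 6 bile duct markers was 1162 CPM in DN:WT animal 10 against 30.3 to 70.8 in the other 7 DN:WT livers, and 43.4 CPM in DN:HOM animal 12 against 723 to 1070 in the other 7 DN:HOM livers. In DN:WT animal 10 Ppara was 35.9 CPM, Nr1i3 84.2, Nr1h4 105 and Thrb 25.1, and in DN:HOM animal 12 they were 114, 219, 153 and 41.3 CPM. Apart from Nr1i3, these values lay within the range of the opposite homozygous genotype and outside that of their own group; Nr1i3 lay below both ranges in animal 10 and within both in animal 12. Both libraries were left out of the values below, which rest on 46 livers, and the receptor genes and the counts are also given with all 48. Whether the labels of the 2 libraries were exchanged was not tested. If they were, each 48-liver value sets groups against each other that hold 1 liver of the opposite genotype.

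The 4 receptor genes whose homozygous effect differed between the knock-in and the knockout (Nr1h4, Nr1i3, Ppara and Thrb, with values below) had the following promoter sequences, each from 250 bases before to 50 bases after a RefSeq transcription start on GRCm38.p6. They are shown because these genes moved apart between the alleles. Capitals mark the half-site AGGTCA read on either strand.
Nr1h4, chr10:89506609-89506908, minus strand: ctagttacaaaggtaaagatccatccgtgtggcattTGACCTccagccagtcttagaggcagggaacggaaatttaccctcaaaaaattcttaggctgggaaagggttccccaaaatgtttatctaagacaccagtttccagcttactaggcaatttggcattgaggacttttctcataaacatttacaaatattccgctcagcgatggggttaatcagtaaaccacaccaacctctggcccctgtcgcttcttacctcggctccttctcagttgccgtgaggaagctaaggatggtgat
Nr1i3, chr1:171213720-171214019, plus strand: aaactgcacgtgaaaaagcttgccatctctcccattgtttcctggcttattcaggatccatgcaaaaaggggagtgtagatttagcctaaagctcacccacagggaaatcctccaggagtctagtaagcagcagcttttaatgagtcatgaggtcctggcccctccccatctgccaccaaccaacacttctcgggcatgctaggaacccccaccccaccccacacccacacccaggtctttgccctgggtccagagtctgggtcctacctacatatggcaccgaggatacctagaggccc
Ppara, chr15:85735526-85735825, plus strand: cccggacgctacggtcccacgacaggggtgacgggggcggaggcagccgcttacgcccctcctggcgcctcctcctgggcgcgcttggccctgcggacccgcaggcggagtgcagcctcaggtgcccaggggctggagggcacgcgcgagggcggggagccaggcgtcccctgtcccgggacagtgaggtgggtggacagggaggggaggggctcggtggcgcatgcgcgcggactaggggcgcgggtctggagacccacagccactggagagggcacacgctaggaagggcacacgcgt
Thrb, chr14:17660710-17661009, plus strand, 1 of its 2 listed starts: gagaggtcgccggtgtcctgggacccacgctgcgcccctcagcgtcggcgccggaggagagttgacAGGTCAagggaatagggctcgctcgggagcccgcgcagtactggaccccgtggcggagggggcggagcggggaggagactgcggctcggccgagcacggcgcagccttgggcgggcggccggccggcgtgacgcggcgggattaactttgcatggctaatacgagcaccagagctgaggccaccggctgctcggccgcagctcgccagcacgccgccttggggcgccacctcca
The half-site began 214 bases before the start of Nr1h4, where it reads tgacct, and 184 bases before that of Thrb, where it reads aggtca. No match for these 6 letters was found in the windows of Nr1i3 and Ppara. Among all 32851 RefSeq promoters of the same length, 16.26% held the half-site, against 2 of the 10 promoters listed for the 9 receptor genes. Of 3 longer motifs searched on both strands, all of which contain the half-site, the direct repeat AGGTCANAGGTCA (DR1) was in 0.03957% of all promoters, the direct repeat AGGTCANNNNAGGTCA (DR4) in 0.01522% and the inverted repeat AGGTCANTGACCT (IR1) in 0.009132%. None of the 3 was found in the 10 windows. A match is a description of the letters and not a binding site.

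Levels between genes were compared per kilobase of exon. In DN:WT livers Nr1i3 stood highest with a mean of 61.5 ± 13.8 CPM per kb (SD, n = 7), and its range did not overlap that of any other receptor gene. Nr1h4 (30.5), Nr1i2 (28.1), Nr0b2 (23.8) and Ppara (17.8 CPM per kb) followed, each with a range that overlapped its neighbour's. Esrra (5.82), Rora (4.66) and Thrb (4.35) formed a lower set with overlapping neighbours, and Ppard was lowest at 1.38 CPM per kb. In KO:WT livers Nr1i3 was again first with a mean of 113 CPM per kb, followed by Nr1i2 at 47.2, Nr1h4 at 35.0, Ppara at 25.0 and Nr0b2 at 21.5. In DN:HOM livers the mean of Nr1i3 was 30.1 CPM per kb and its range overlapped that of Nr1i2 at 25.3, and Ppara, at 6.42, overlapped Esrra at 5.39.

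**Figure D1:**
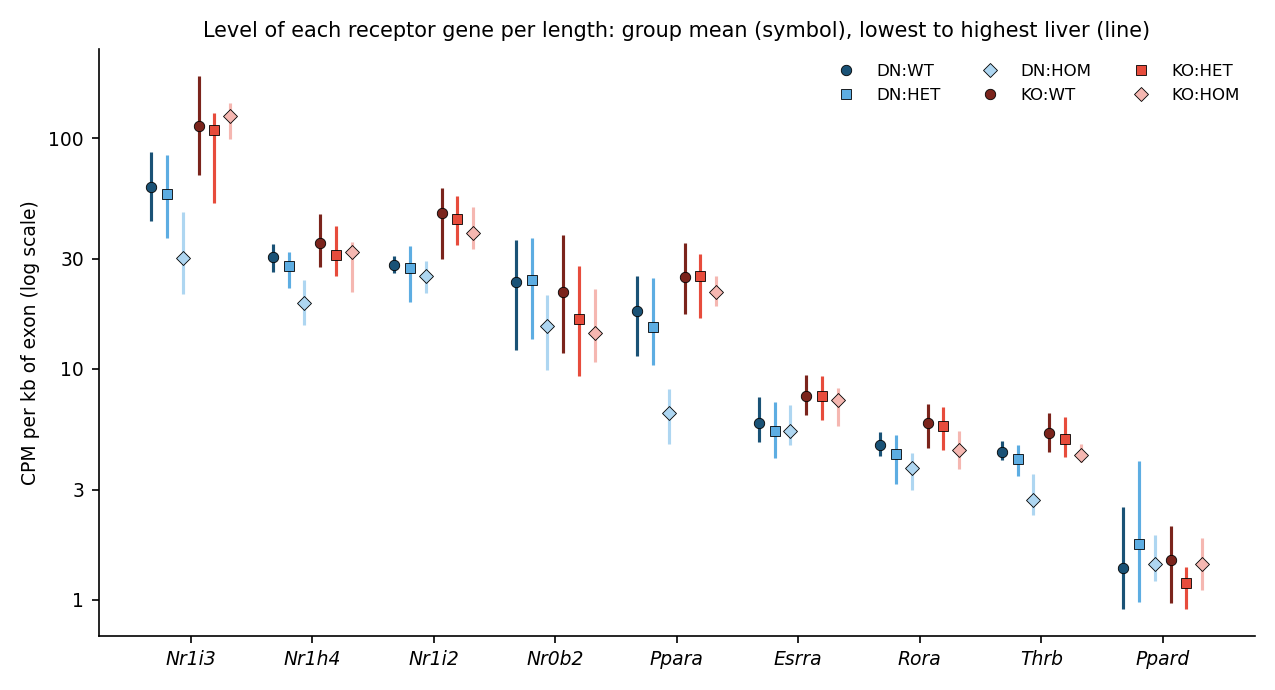
Level of each receptor gene in CPM per kilobase of exon in the 6 groups, on a log scale, over 46 livers. Nr1i3 was highest in DN:WT livers (mean 61.5 CPM per kb) and Ppard lowest (1.38 CPM per kb).

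The comparison of DN:HOM with DN:WT asked how livers with the dominant negative allele on both chromosomes differed from wild-type livers in the other metabolic receptors. Of the 9 genes 6 fell and none rose (edgeR's quasi-likelihood test, Benjamini-Hochberg adjusted p under 0.05), namely Ppara, Nr1i3, Thrb, Nr1h4, Nr0b2 and Rora. Over all genes tested 59.1% passed in either direction and 30% passed as lower, so the number that passed was near the background, while all 6 lay on one side. The median log2 fold change of the 9 was -0.63 against -0.01 over all genes. Over all 48 livers 5 of 9 fell, Nr0b2 no longer passing, where 48% of genes passed. With library size alone as the scaling, 3 of 9 fell (Nr1i3, Ppara and Thrb) and 2 rose (Nr1i2 and Esrra). Under that scaling 70.1% of all genes passed, 9283 of 11021 as higher.

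In the same livers 9 of 10 hepatocyte marker genes fell and none rose (8 fell with all 48). Their summed level was 35677 to 48510 CPM in DN:HOM against 72821 to 89110 in DN:WT. All 6 bile duct markers and 9 of 10 stellate cell and fibroblast markers rose, and no hepatocyte or bile duct marker was at 0 in all livers of either group. All 3 tested neutrophil, all 5 proliferation and 4 of 6 T cell markers rose too, 7 of 12 macrophage markers rose and 5 fell, and 5 of 7 endothelial markers fell and 1 rose. The part of these shifts in the receptor values was not tested. Scaling by library size alone moved the median of all genes in this comparison to 0.42, so changes are given relative to the TMM scaling. Among the 9 receptor genes Nr1i2, Esrra and Rora turned direction in this comparison, with the values given for each.

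Nr1h4 (ENSMUSG00000047638; GRCm39 chr10:89289742-89369497, minus strand) encodes FXR, the receptor for bile acids. The lowest, median and highest levels were 127, 149 and 169 CPM in DN:WT livers. The corresponding DN:HET levels were 109, 138 and 157 CPM. The DN:HOM levels were 75.2, 89.4 and 117 CPM. Every DN:HOM liver lay below every DN:WT liver, while DN:HOM and DN:HET overlapped. The log2 fold change of DN:HOM against DN:WT was -0.66 (SE 0.12, edgeR's quasi-likelihood test, Benjamini-Hochberg adjusted p = 5.48e-06), and with all 48 livers it was -0.51 (adjusted p = 0.00118). With library size alone it was -0.23 and did not pass (adjusted p = 0.0710). Nr1h4, Ppara and Thrb were the 3 receptor genes without overlap between DN:HOM and DN:WT, where 33.3% of all genes tested had none. None of the 3 was free of overlap with all 48 livers, where 0.115% of genes (18 of 15621) were, so their overlap there is not particular to them.

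Nr1h4 in the knockout study had 135, 169.8 and 227 CPM in KO:WT livers as lowest, median and highest. The KO:HET levels were 123, 148 and 203 CPM, and the KO:HOM levels were 105, 163 and 173 CPM. The 3 groups overlapped, and 1 KO:HOM liver, animal 8, held the lowest value. Its log2 fold change of KO:HOM against KO:WT was -0.12 (SE 0.11, adjusted p = 0.47), which did not pass.

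Nr0b2 (ENSMUSG00000037583; GRCm39 chr4:133280678-133283847, plus strand) encodes SHP, a repressor induced by FXR. Its levels were 26.1, 52.9 and 78.2 CPM in DN:WT and 28.9, 54.1 and 79.6 CPM in DN:HET, given as lowest, median and highest. DN:HOM livers held 21.2, 32.8 and 44.9 CPM. DN:HOM livers lay toward the low end, and the groups overlapped. The log2 fold change of DN:HOM against DN:WT was -0.63 (SE 0.26, adjusted p = 0.0347), and -0.49 (adjusted p = 0.0971) with all 48 livers. Leaving out DN:WT animal 5 or 13, or DN:HOM animal 18, 19 or 34, also ended this call, with log2 fold changes from -0.76 to -0.52 and adjusted p up to 0.0939 over all livers left out singly, as did upper-quartile scaling, no filter on low counts and library size alone (-0.20, adjusted p = 0.497). In the knockout study the levels were 25.1, 37.4 and 82.1 CPM in KO:WT, 20.1, 38.1 and 60.4 CPM in KO:HET and 22.99, 27.1 and 48 CPM in KO:HOM livers. The ranges overlapped, and the log2 fold change of KO:HOM against KO:WT was -0.58 (SE 0.25, adjusted p = 0.0907). Among the fits that left out 1 liver it passed only without KO:HOM animal 30 (adjusted p = 0.0400).

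The FXR target list holds genes that FXR is known to raise and genes that it lowers through SHP, so its pooled count and median do not describe a response in one direction. Of 12 tested, 8 fell and 2 rose in DN:HOM against DN:WT (median log2 fold change -0.80), where 59.1% of all genes passed, and 7 fell and 1 rose with all 48 livers. Cyp8b1, which makes 12-hydroxylated bile acids, had a log2 fold change of -2.77 (SE 0.33, adjusted p = 9.8e-10), and -1.89 with all 48 livers. The bile acid uptake carrier Slc10a1 had -2.19 (SE 0.18; -1.52 with all 48 livers) and the bile salt export pump Abcb11 -0.93 (SE 0.12; -0.69), both passing. Cyp7a1, which starts the classic pathway of bile acid synthesis, also passed at -1.81 (SE 0.38; -1.35 with all 48 livers). These 4 genes of synthesis, uptake and canalicular export passed as lower. The basolateral efflux gene Slc51b was one of the 2 that rose, from a mean of 0.461 to 2.72 CPM, though not with all 48 livers (adjusted p = 0.0604). In KO:HOM against KO:WT 2 of 12 fell and none rose (median -0.09), where 19.4% of all genes passed and 7.87% were lower. With all 48 livers none of the 12 passed.

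Nr1i2 (ENSMUSG00000022809; GRCm39 chr16:38068685-38115216, minus strand) encodes PXR, a receptor for drugs and bile acids. The lowest, median and highest levels were 70.6, 75.1 and 83.7 CPM in DN:WT, 52.7, 76.5 and 92.1 CPM in DN:HET and 57.8, 69.3 and 79.2 CPM in DN:HOM livers. The 3 groups overlapped, and the log2 fold change of DN:HOM against DN:WT was -0.15 (SE 0.12, adjusted p = 0.259). With library size alone it turned to 0.28 (adjusted p = 0.0321), below the median of all genes by 0.14. Knockout-study levels were 81, 123 and 164 CPM in KO:WT, 92.9, 118 and 151 CPM in KO:HET and 89.4, 103 and 136 CPM in KO:HOM livers. Every KO:HOM value lay within the KO:WT range, and the log2 fold change of -0.28 (SE 0.11, adjusted p = 0.0638) did not pass, although it did without KO:HOM animal 11 or KO:WT animal 1 (lowest adjusted p = 0.0121).

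Nr1i3 (ENSMUSG00000005677; GRCm39 chr1:171041506-171048270, plus strand) encodes CAR, a receptor activated by drugs and bilirubin. Its levels were 204, 269.7 and 404 CPM in DN:WT, 171, 251 and 394 CPM in DN:HET and 98.1, 120.2 and 222 CPM in DN:HOM livers. DN:HOM livers were low as a group, but the highest of them passed the lowest DN:WT liver. Its log2 fold change of DN:HOM against DN:WT was -1.03 (SE 0.20, adjusted p = 2.39e-05), a level of 49.0% of wild-type, and -0.81 (adjusted p = 0.00272) with all 48 livers. Across the knockout study it stood at 323, 471 and 867 CPM in KO:WT, 244, 567 and 598 CPM in KO:HET and 461, 602 and 659 CPM in KO:HOM livers. These ranges overlapped, with a log2 fold change of 0.14 (SE 0.19, adjusted p = 0.644). Nr1i3 shares 3501 exon bases with Tomm40l on the opposite strand, so its reads are uncertain where the strand of a read is not kept. Tomm40l, at a mean of 34.2 CPM in DN:WT, had a log2 fold change of -0.24 in DN:HOM (adjusted p = 0.136).

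Of 18 tested PXR and CAR target genes, 12 fell and 4 rose in DN:HOM against DN:WT (median -0.61), where 59.1% of all genes passed, and 9 fell and 4 rose with all 48 livers. Cyp3a11, the main PXR-induced cytochrome P450, rose from 3009 ± 795 CPM (SD, n = 7) in DN:WT to 6647 ± 2011 (n = 7) in DN:HOM, a log2 fold change of 1.14, and 0.83 with all 48 livers. It also rose in KO:HOM, at 11540 ± 1066 CPM against 2264 ± 622 in KO:WT (n = 8 each), with a log2 fold change of 2.35 (SE 0.18). Cyp2b10, the classic CAR target, passed in DN:HOM (adjusted p = 0.0174) but lay at 1.32 CPM or less in every DN:WT and DN:HOM liver, and it did not pass with all 48 livers (adjusted p = 0.491). Cyp2c55 rose in DN:HOM by 1.11 (0.76 with all 48 livers) and in KO:HOM by 1.70 on the log2 scale. In KO:HOM 7 of 18 targets rose and none fell (median 0.47), where 19.4% of all genes passed, and 6 rose with all 48 livers. For the difference of the homozygous effects, DN minus KO, 12 of 18 were lower and none higher over 46 livers (median -1.09). Of all genes 34.7% passed that test and 18.3% were lower. The list was not tested as a set.

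Ppara (ENSMUSG00000022383; GRCm39 chr15:85618656-85687067, plus strand) encodes PPARα, the fatty acid receptor of fasting. Its levels were 75.1, 113 and 166 CPM in DN:WT, 68.6, 98.4 and 164 CPM in DN:HET and 31.2, 40.7 and 54.05 CPM in DN:HOM livers. Every DN:HOM liver lay below every DN:WT and every DN:HET liver. The log2 fold change of DN:HOM against DN:WT was -1.47 (SE 0.17, adjusted p = 5.66e-10), a level of 36.2% of wild-type, and -1.07 (adjusted p = 0.000172) with all 48 livers. Among all genes tested 3.61% had a lower value, against 7.04% for Nr1i3, 13.1% for Thrb and 14% for Nr1h4. Livers of the knockout study held 114, 159.5 and 231 CPM in KO:WT, 110.0, 172 and 207 CPM in KO:HET and 124, 137 and 167 CPM in KO:HOM livers. Every KO:HOM value lay within the KO:WT range, with a log2 fold change of -0.21 (SE 0.15, adjusted p = 0.359). Ppara shares 1803 exon bases with Cdpf1 on the opposite strand, which lay at 2.90 CPM in DN:WT and rose in DN:HOM (log2 fold change 0.92).

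Ppard (ENSMUSG00000002250; GRCm39 chr17:28451674-28520448, plus strand) encodes PPARδ, a fatty acid receptor with broad expression. Its levels were 6.83, 9.08 and 18.9 CPM in DN:WT, 7.30, 10.3 and 30.02 CPM in DN:HET and 9.02, 10.01 and 14.3 CPM in DN:HOM livers. The ranges overlapped, and the highest values came from single DN:WT and DN:HET livers. Its log2 fold change of DN:HOM against DN:WT was 0.05 (SE 0.23, adjusted p = 0.853). Among the knockout-study groups the levels were 7.24, 11.5 and 15.7 CPM in KO:WT, 6.86, 9.32 and 10.4 CPM in KO:HET and 8.29, 10.3 and 13.8 CPM in KO:HOM livers, and the log2 fold change of KO:HOM was -0.06 (SE 0.21, adjusted p = 0.88).

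Of 24 PPARα target genes 18 fell and none rose in DN:HOM against DN:WT (median -0.75), where 30% of all genes were lower, and 17 fell with all 48 livers. The mitochondrial carnitine enzyme Cpt1a had a log2 fold change of -0.69 (SE 0.14; -0.49 with all 48 livers) and the lipid droplet protein Plin2 -0.88 (SE 0.18; -0.64), both passing. The hormone gene Fgf21 (0.05, adjusted p = 0.915) and the kinase gene Pdk4 (-0.19, adjusted p = 0.692) did not pass. In KO:HOM against KO:WT 2 of 24 fell and none rose (median -0.20), near the 7.87% of all genes that were lower, and 1 fell with all 48 livers. Plin2 there had a log2 fold change of -0.24 (SE 0.17, adjusted p = 0.347).

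Esrra (ENSMUSG00000024955; GRCm39 chr19:6888338-6899336, minus strand) encodes ERRα. Its levels were 24.03, 28.1 and 37.9 CPM in DN:WT, 20.5, 25.6 and 35.7 CPM in DN:HET and 23.3, 25.1 and 34.7 CPM in DN:HOM livers. The 3 ranges overlapped over most of their width, and the log2 fold change of DN:HOM against DN:WT was -0.11 (SE 0.11, adjusted p = 0.423), turning to 0.32 with library size alone. The knockout study gave 31.4, 35.7 and 47.1 CPM in KO:WT, 29.9, 37.3 and 46.6 CPM in KO:HET and 28.2, 36.4 and 41.1 CPM in KO:HOM livers. KO:HOM gave a log2 fold change of -0.06 (SE 0.11, adjusted p = 0.739). Esrra shares 1479 exon bases with Trmt112 on the opposite strand, at 26.6 CPM in DN:WT. Although Esrra itself did not pass, 17 of 18 ERRα target genes fell and none rose in DN:HOM (median -0.54), where 30% of all genes were lower. With library size alone 8 fell and 1 rose, with the median of all genes at 0.42. Of all genes 70.1% then passed, 9283 of 11021 as higher. The citric acid cycle gene Cs had -0.75 (SE 0.09, adjusted p = 3.35e-09; -0.57 with all 48 livers) and Idh3a -0.01 (SE 0.11, adjusted p = 0.932). In KO:HOM 5 of 18 fell and none rose (median -0.14), where 7.87% of all genes were lower, of which Cs had -0.39 (SE 0.09, adjusted p = 0.000817), but only 1 fell with all 48 livers.

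Rora (ENSMUSG00000032238; GRCm39 chr9:68561068-69295528, plus strand) encodes RORα, an activator of clock and lipid genes. Its levels were 60.8, 66.8 and 77.2 CPM in DN:WT, 45.9, 63.4 and 75.1 CPM in DN:HET and 43.2, 53.1 and 62.4 CPM in DN:HOM livers. The DN:HOM range reached just into the DN:WT range. The log2 fold change was -0.33 (SE 0.11, adjusted p = 0.00906), -0.29 (adjusted p = 0.0195) with all 48 livers, and 0.10 with library size alone (adjusted p = 0.429), so its direction depended on the scaling. For the knockout line the levels were 65.8, 89.4 and 102 CPM in KO:WT, 64.4, 82.7 and 99.2 CPM in KO:HET and 53.4, 61.5 and 78.01 CPM in KO:HOM livers. KO:HOM livers were the lowest group with some overlap, at a log2 fold change of -0.40 (SE 0.10, adjusted p = 0.0045) against KO:WT. Of 12 RORα target genes 6 fell and 1 rose in DN:HOM (median -0.81), and 2 fell in KO:HOM (median -0.21). Both counts lay near the shares of all genes that passed in these comparisons, 59.1% and 19.4%, while 30% and 7.87% were lower. Across all 48 livers 5 and 0 of them fell. Elovl3, a fatty acid elongase, fell in both, at -2.92 (SE 0.41; -1.85 with all 48 livers) and -1.09 (SE 0.37), the latter not with all 48 livers (adjusted p = 0.129). Other defining genes are given as mean CPM in DN:WT, DN:HOM, KO:WT and KO:HOM. Bmal1 had 10.7, 6.32, 2.27 and 2.25, Cyp7b1 136, 77.6, 161 and 143, and Nr1d1 128.5, 86.5, 85.8 and 52.7.

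Thrb (ENSMUSG00000021779; GRCm39 chr14:4429815-4809435, minus strand) encodes TRβ, the main thyroid hormone receptor of hepatocytes. Its levels were 37.04, 39.5 and 44.7 CPM in DN:WT, 31.5, 37.8 and 43 CPM in DN:HET and 21.3, 22.8 and 32.1 CPM in DN:HOM livers. All DN:HOM livers lay below all DN:WT livers. Its log2 fold change was -0.69 (SE 0.09, adjusted p = 2.71e-08) and, with all 48 livers, -0.52 (adjusted p = 0.000303). Knockout-line levels were 40.2, 46.8 and 59.3 CPM in KO:WT, 38.2, 45.7 and 56.9 CPM in KO:HET and 36.3, 38.2 and 43.6 CPM in KO:HOM livers. These ranges overlapped, yet the log2 fold change of -0.30 (SE 0.09, adjusted p = 0.00953) passed over 46 livers, and not with all 48 (adjusted p = 0.0652). Of 10 thyroid hormone genes 6 fell and 1 rose in DN:HOM (median -0.74), and 3 fell in KO:HOM (median -0.34). Of all genes 59.1% and 19.4% passed in these comparisons, and 30% and 7.87% were lower. The list was not tested as a set. With all 48 livers 6 and 2 fell. Thrsp, a lipogenic thyroid hormone target, went from 1128 ± 644 CPM (SD, n = 7) in DN:WT to 22.1 ± 12.4 (n = 7) in DN:HOM, a log2 fold change of -5.67, and -3.17 with all 48 livers. Malic enzyme Me1 had -2.60 (SE 0.32; -1.88 with all 48 livers) in DN:HOM and -1.27 (SE 0.28) in KO:HOM, both passing. The other 2 defining genes moved less. Mean Dio1 was 200 CPM in DN:WT and 166 in DN:HOM, but 177 in KO:WT and 234 in KO:HOM, higher there. Mean Klf9 was 129 and 74.5 CPM in DN:WT and DN:HOM, and 154 and 128 CPM in KO:WT and KO:HOM.

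**Figure D2:**
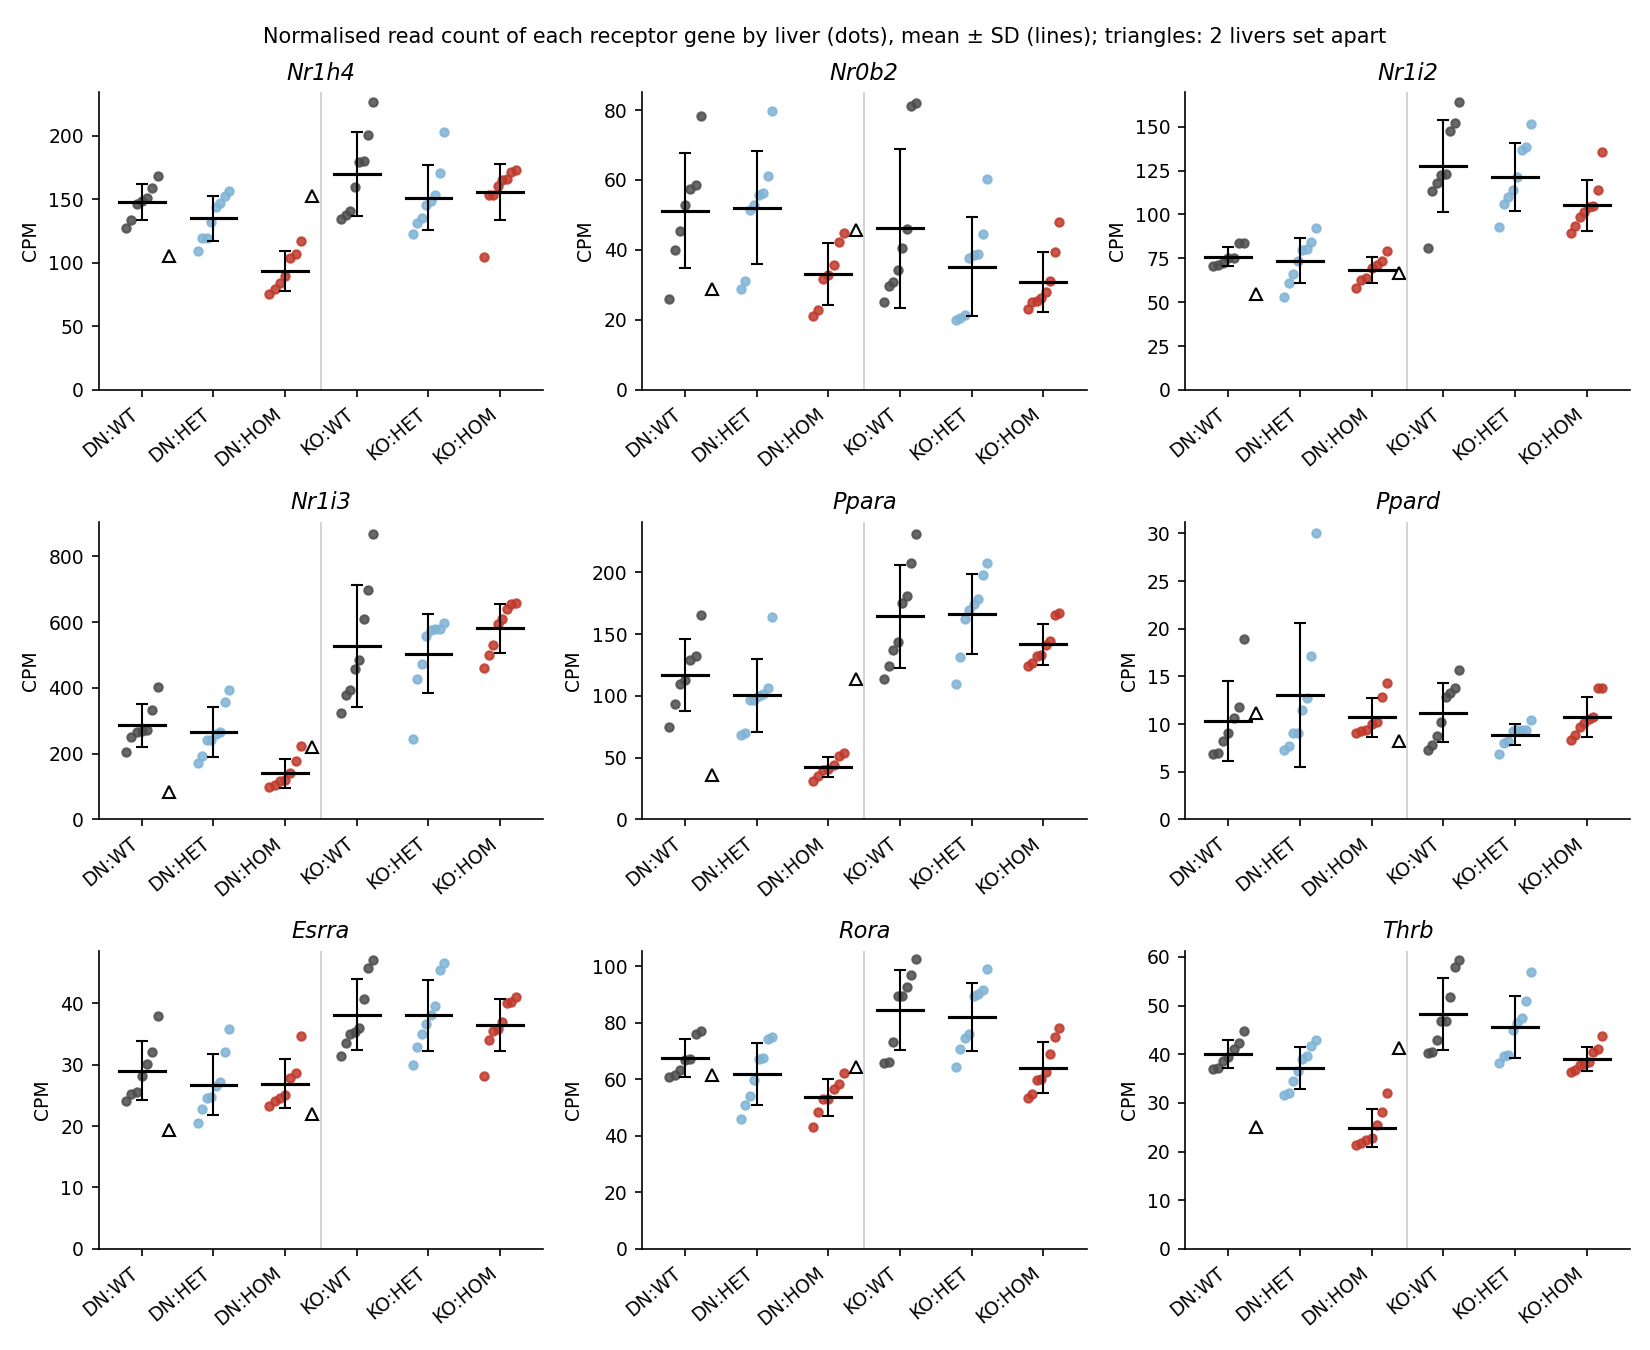
Level in CPM of each receptor gene in every liver of the 6 groups, each point 1 liver. Dots are the 46 livers, and triangles are DN:WT animal 10 and DN:HOM animal 12, which were left out. For Ppara, the DN:HOM dots, highest at 54.0 CPM, lie below the lowest DN:WT dot at 75.1 CPM.

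In DN:HOM against DN:HET 5 of 9 fell, where 53.9% of all genes passed and 27.8% were lower. By log2 fold change these were Nr1h4 (-0.53), Nr0b2 (-0.65), Nr1i3 (-0.92), Ppara (-1.25) and Thrb (-0.58), and Ppara was the 1 gene without overlap, where 21.8% of genes had none. Nr0b2 did not pass with upper-quartile scaling, with library size alone (-0.29), or without DN:HET animal 14 or DN:HOM animal 19 or 34, and Nr1h4 did not with library size alone (-0.15, adjusted p = 0.231), where Nr1i2 (0.26) and Esrra (0.38) passed as higher. With library size alone 65.6% of all genes passed in this comparison, 8620 of 10302 as higher. In the 48-liver fit 5 of 9 fell, where 46.4% of genes passed, and none was free of overlap, where 1.18% of genes were. In these livers 8 of 10 hepatocyte markers were lower, and all 6 bile duct and 8 of 10 stellate cell and fibroblast markers were higher, in DN:HOM than in DN:HET. Their part in the receptor values was not tested. In DN:HET against DN:WT none of the 9 passed (edgeR, adjusted p from 0.561 to 0.986, 0 at an unadjusted p under 0.05, and 0 in DESeq2), where 2.30% of genes passed. Log2 fold changes there ran from -0.22 (Ppara) to 0.33 (Ppard). In KO:HET against KO:WT again none passed (edgeR, adjusted p from 0.832 to 0.999, 0 at an unadjusted p under 0.05, and 0 in DESeq2), where 0.0191% of genes passed. A single mutant allele of either kind was thus not followed by a change past the threshold in any of the 9 genes, with or without the libraries that stood apart.

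In KO:HOM against KO:WT 2 of 9 fell, Rora and Thrb, and none rose, where 19.4% of all genes passed and 7.87% were lower. With all 48 livers 1 of 9 passed, where 12.9% of genes did. With library size alone 1 of 9 passed, where 19.5% of genes did, since Thrb did not (-0.19, adjusted p = 0.1002). The median log2 fold change of the 9 was -0.21 against -0.02 over all genes. In the same livers 6 of 10 hepatocyte markers fell (summed level 65752 to 90306 CPM against 86239 to 111669 in KO:WT), and all 6 T cell and 6 of 10 stellate cell and fibroblast markers rose, with 3, 6 and 2 past the threshold in the 48-liver fit. Over 46 livers 6 of 12 macrophage markers rose and 3 fell, and 2 of 3 tested neutrophil markers rose. Their part in the receptor values was not tested. In KO:HOM against KO:HET 1 of 9 fell, where 10.6% of genes passed. This was Rora, with a log2 fold change of -0.36 (SE 0.10, edgeR's quasi-likelihood test, adjusted p = 0.0209), which did not pass with library size alone or without KO:HOM animal 26 or 27 or KO:HET animal 7. In the same comparison 5 of 10 hepatocyte markers fell, 6 of 12 macrophage markers rose and 4 fell, and 2 of 6 bile duct markers rose. Their part in the Rora value was not tested.

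**Figure D3:**
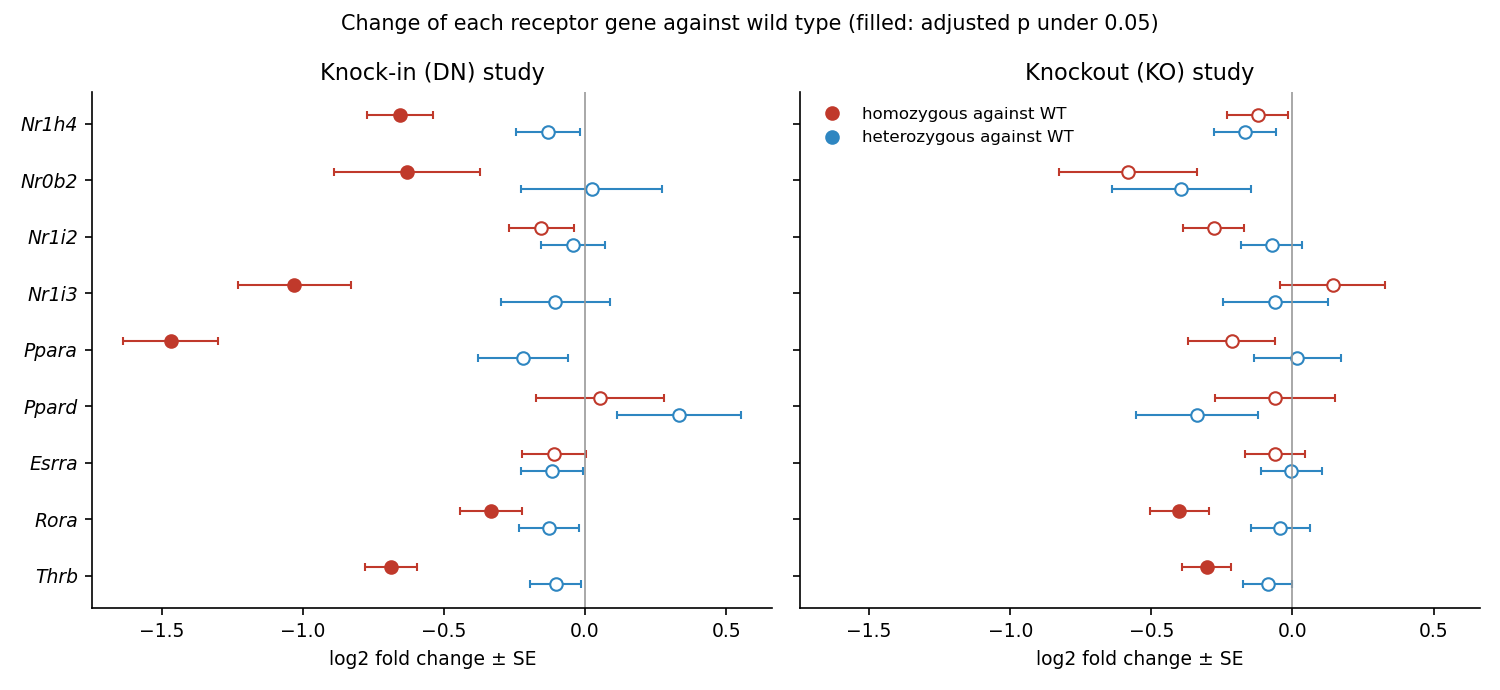
Log2 fold change with its standard error for each receptor gene in the homozygous and heterozygous comparisons of both studies, over 46 livers. In DN:HOM against DN:WT the lowest value is that of Ppara, -1.47, and in KO:HOM against KO:WT it is that of Nr0b2, -0.58, which did not pass.

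The test of the difference between the homozygous effects, DN minus KO, asked whether the dominant negative allele and loss of the protein move these genes alike. Of the 9 genes 4 passed, all with a lower value in the knock-in, where 34.7% of all genes passed and 18.3% were lower. Over all 48 livers 1 of 9 passed, where 10.5% of genes did. The difference was -1.25 (SE 0.23, adjusted p = 2.69e-05) for Ppara and -1.17 (SE 0.27, adjusted p = 0.000716) for Nr1i3. It was -0.53 (SE 0.16, adjusted p = 0.00756) for Nr1h4 and -0.38 (SE 0.13, adjusted p = 0.016) for Thrb. With all 48 livers Nr1i3 passed (adjusted p = 0.0386) and Ppara (0.0572), Nr1h4 (0.141) and Thrb (0.374) did not. With library size alone Ppara (-0.94) and Nr1i3 (-0.85) passed as lower, and Nr1h4 (-0.22, adjusted p = 0.266) and Thrb (-0.08, adjusted p = 0.625) did not pass. Nr1i2 (0.44, adjusted p = 0.0227) and Rora (0.38, adjusted p = 0.0311) then passed as higher in the knock-in, where the median of all genes was 0.31. Under that scaling 46.2% of all genes passed, 5929 of 7265 as higher. For the same difference 6 of 10 hepatocyte markers were lower (median -0.58) and all 6 bile duct markers higher (median 3.42), and with all 48 livers 0 and 3 passed. Their part was not tested. With TMM the other 5 receptor genes had differences from -0.05 (SE 0.16, Esrra) to 0.13 (SE 0.16, Nr1i2).

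**Figure D4:**
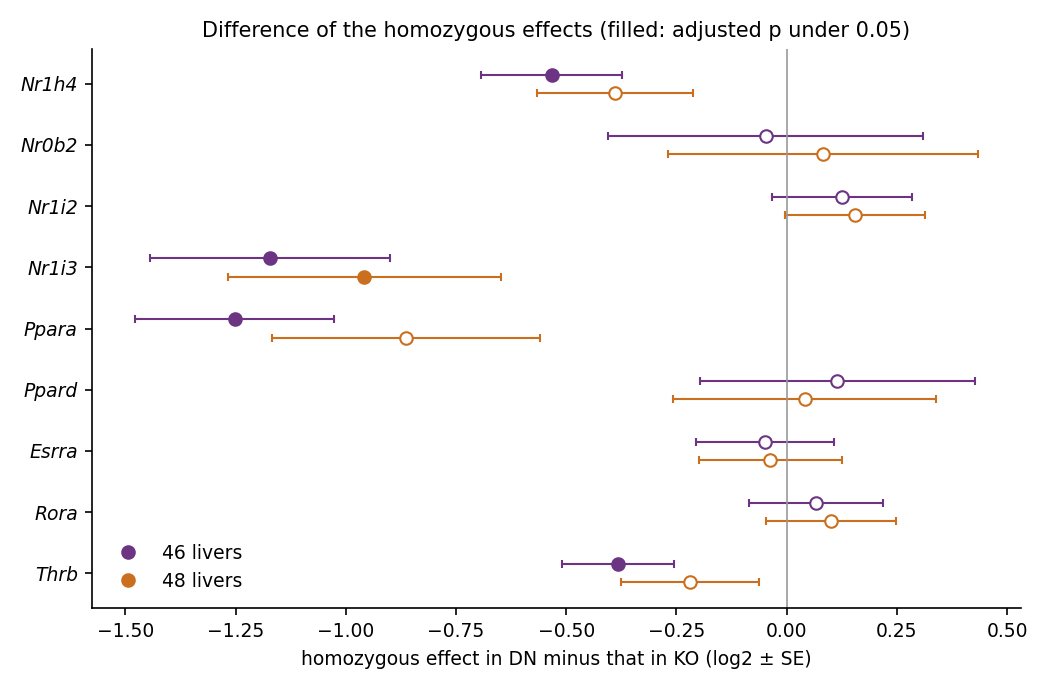
Difference of the homozygous effects, DN minus KO, in log2 units with its standard error for each receptor gene. One series is over 46 livers and one over all 48, with filled points where adjusted p was under 0.05. Over 46 livers Ppara (-1.25) and Nr1i3 (-1.17) lie farthest below 0.

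The last comparison set the controls of one study against those of the other. In KO:WT against DN:WT 6 of 9 receptor genes were higher, where 12% of all genes passed and 6.47% were higher. By log2 fold change these were Nr1i3 (0.88, SE 0.19), Nr1i2 (0.75, SE 0.11), Ppara (0.49, SE 0.16), Esrra (0.39, SE 0.11), Rora (0.32, SE 0.11) and Thrb (0.27, SE 0.09). The groups overlapped for all 9 genes, where only 1.76% of all genes tested had no overlap, so this is not particular to them. Of the 9, 2 passed without DN:WT animal 2, and 3 without DN:WT animal 17 or without KO:WT animal 14, 33 or 34. The calls of Ppara, Rora and Thrb were also lost without other single livers and with no filter on low counts, with adjusted p up to 0.106, 0.109 and 0.129 when 1 liver was left out. The summed hepatocyte markers were 86239 to 111669 CPM in KO:WT against 72821 to 89110 in DN:WT, and their part was not tested. Across all 48 livers 6 of 9 passed as well, where 12.7% of genes did. With library size alone Rora and Thrb did not (adjusted p = 0.0811 and 0.0836).

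Among the 7 close relatives of the 9 genes that could be tested, 4 fell and 1 rose in DN:HOM against DN:WT (median -0.69), and 4 fell with all 48 livers. In KO:HOM against KO:WT 2 rose and none fell (median 0.26), with 46 and with 48 livers. With 59.1% of all genes passing in DN:HOM and 19.4% in KO:HOM, both counts were near the background in either direction. In KO:HOM 1811 of 15711 genes were higher. The 2 that rose in KO:HOM were Nr1h5, which encodes FXRβ, and the vitamin D receptor gene Vdr. Nr1h5 had a log2 fold change of 0.53 (SE 0.16, adjusted p = 0.0114) there against -0.69 (adjusted p = 0.000454) in DN:HOM. Vdr went from a mean of 0.0171 to 0.900 CPM in KO:HOM (adjusted p = 0.000463). Esrrg, which encodes ERRγ, had a log2 fold change of -2.70 (SE 0.35, adjusted p = 1.29e-08) from a mean of 3.63 CPM, and -1.44 (adjusted p = 0.00871) with all 48 livers. In KO:HOM it had 0.03 (SE 0.28, adjusted p = 0.956), which did not pass. Vdr, the one that rose in DN:HOM, was at 0.852 CPM or less in every DN:HOM liver and did not pass with all 48 livers (adjusted p = 0.0731). Pparg (-0.01) and Thra (0.08) did not pass in DN:HOM, and with library size alone they had 0.42, in the other direction for Pparg, and 0.51. Of 12 RXR partners and coregulators 8 fell and none rose in DN:HOM (median -0.26), and 7 fell with all 48 livers. Over 46 livers 59.1% of all genes passed and 30% were lower, and this list was not tested as a set. With library size alone 7 rose and none fell. The median of all genes was then 0.42, and 70.1% passed, 9283 of 11021 as higher. Rxra, the RXR gene of hepatocytes, had -0.59 (SE 0.10, adjusted p = 3.31e-06; -0.44 with all 48 livers) in DN:HOM and -0.13 (SE 0.09, adjusted p = 0.383) in KO:HOM.

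**Figure D5:**
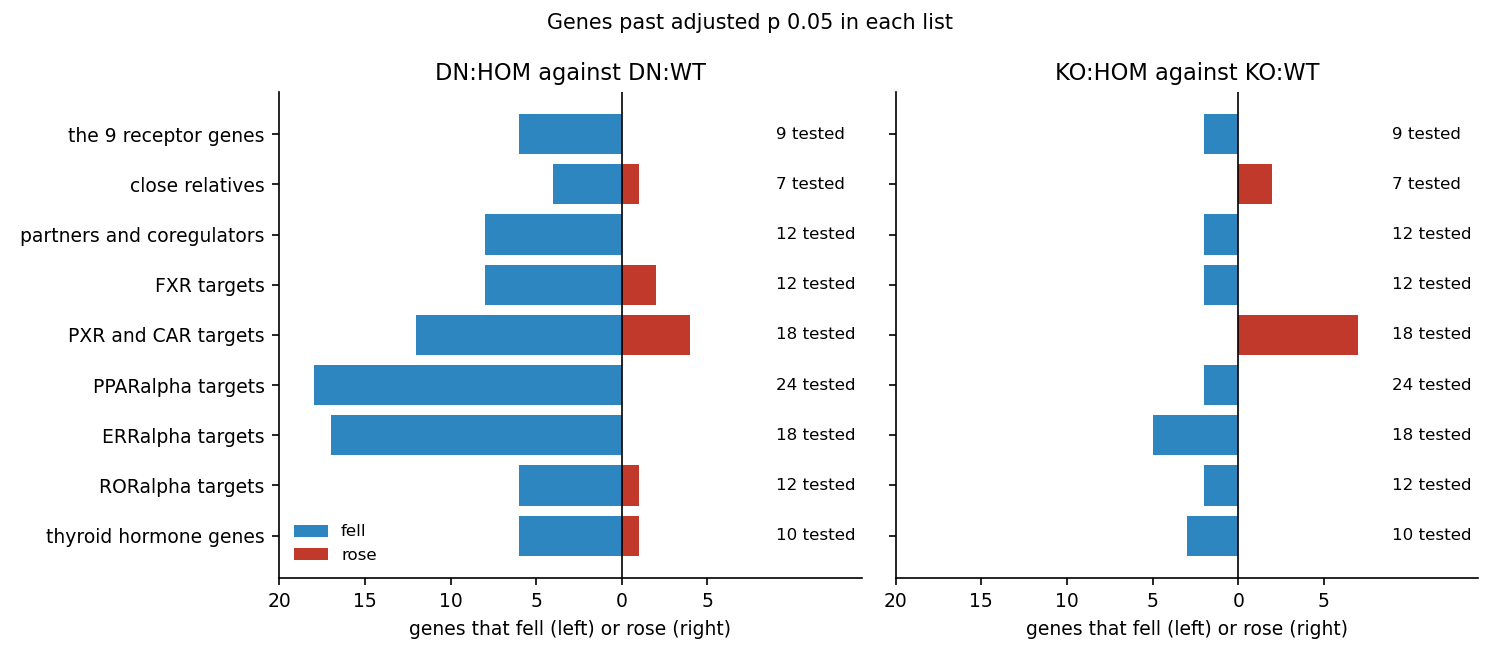
Number of genes that rose or fell in DN:HOM against DN:WT and KO:HOM against KO:WT for the 9 receptor genes and each related list, over 46 livers. The number tested is printed beside the bars. Of the PPARα targets 18 of 24 fell in DN:HOM and 2 of 24 in KO:HOM.

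Within groups, across the 46 livers, the receptor genes varied together to different degrees, given here as a description of livers that share genotype structure, depth and tissue composition. Pearson's r of group-centred log2 CPM was 0.74 for Nr1h4 with Nr1i3, 0.58 for Nr1h4 with Esrra, 0.51 for Ppara with Thrb and -0.41 for Nr0b2 with Esrra. The genes most like each receptor gene over the 46 livers were chosen among 11996 protein-coding genes by Pearson's r of log2 CPM. They were Mia2 (0.97) for Ppara, St3gal5 (0.93) for Nr1i2, Tomm40l (0.92), the gene on the opposite strand, for Nr1i3, Pde3b (0.92) for Thrb and Marveld1 (0.90) for Esrra. For Nr1h4 it was Plcg1 (0.88), for Rora Wbp1l (0.84), for Nr0b2 Fndc4 (0.73) and for Ppard Pnrc1 (0.65).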

How the data were processed

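Poly(A) RNA of 48 mouse livers was sequenced from stranded libraries, and the authors deposited raw read counts per gene, made with STAR 2.5.0a (submitters' processing notes) on GRCm39 with annotation release 104. The counts of the strand column were used as deposited; reads naming no gene (24.0% to 35.0% per liver) were left out of library sizes. Groups came from the genotype labels. No livers held identical counts. The main set was 46 livers, without DN:WT animal 10 and DN:HOM animal 12. They were left out because the study's per-animal source data of FXR target genes hold 22 of the 24 knock-in livers, with no reason given. The match was made on 3 of 6 genes within 0.01%. Other source data of the study were not matched, and the paper's legend gives n = 8 for its expression heatmap. All 48 livers were fitted beside the main set. Genes were filtered with filterByExpr, scaled by TMM and tested in 1 fit of 6 group means with edgeR 4.0.16 (R 4.3.3; glmQLFit, glmQLFTest; Benjamini-Hochberg over all genes tested; threshold 0.05). The standard error is the log2 fold change divided by the square root of F. p-values measure the spread between these animals. CPM are TMM-scaled. The scripts were tested on simulated data. The receptor genes and lists were chosen with earlier results of these data known; the named genes are the 9, the defining genes of each list, their tested close relatives, Nr1h3, and the most similar protein-coding gene with a mean of at least 1 CPM. Alternatives were upper-quartile and library-size scaling, other filters, DESeq2 1.42.0, unstranded counts, narrower fits, a threshold of 0.01 and leaving out livers. Promoters came from RefSeq (GRCm38.p6), matched by symbol for all 9 genes; gene positions came from the GRCm39 annotation. Some genes of the lists are counted but not reported by name here.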

Additional observations from a re-analysis of the deposited data

Results flagged for a closer look

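Single livers lay far from the rest of their group (a gap to the nearest liver that is a large share of the group's whole range, by Dixon's test) for 4 of the 54 combinations of gene and group over 46 livers. Chance flags about 1 in 20. The share was 0.603 for Ppara in DN:HET animal 8, at 164 CPM with the nearest liver at 106. For Ppard it was 0.566 in DN:HET animal 20, at 30.02 against 17.2 CPM, and 0.590 in DN:WT animal 21, at 18.9 against 11.8 CPM. For Nr1h4 it was 0.710 in KO:HOM animal 8, at 105 against 153 CPM.

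With all 48 livers, 4 of 18 combinations in DN:WT and DN:HOM did so. The share was 0.720 for Ppara in DN:HOM animal 12, and in DN:WT animal 10 it was 0.534 for Nr1i2 and 0.585 for Thrb. Ppard in DN:WT animal 21 had 0.581.

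The homozygous effect differed between the knock-in and the knockout for 4 receptor genes by edgeR's test of the difference itself. It was lower in the knock-in by a log2 difference of -0.53 for Nr1h4, -1.17 for Nr1i3, -1.25 for Ppara and -0.38 for Thrb. Site and colony cannot be told apart from the allele in this comparison.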

How the results depend on the processing

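No paired analysis was possible because animal numbers are unique within a study, and a number shared across studies names different animals. Leaving out the alternatives that drop single livers, 646 gene values kept direction and side of the threshold, 25 lost the call, 3 gained one, 24 turned direction without passing under either setting and 4 turned with a call under one. Among the 24, with library size alone, were Ppard (0.09) and Rora (0.17) in DN:HOM against DN:HET and Esrra (0.27) and Nr0b2 (0.27) in the difference of the homozygous effects. The 4 turned with library size alone, which moved the median of all genes: in DN:HOM against DN:WT to 0.28 for Nr1i2, 0.32 for Esrra and 0.10 for Rora, and in DN:HOM against DN:HET to 0.26 for Nr1i2. With library size alone the 9 genes in DN:HOM against DN:WT gave 3 lower and 2 higher calls in place of 6 lower, and the difference of the homozygous effects 2 lower and 2 higher in place of 4 lower. Of all genes called then, 9283 of 11021 in DN:HOM against DN:WT and 5929 of 7265 in the difference were higher. The number of the 9 genes passing in KO:HOM against KO:WT was 2, and 1 with all 48 livers or library size alone. In KO:HOM against KO:HET it was 1, and 0 with library size alone or at a threshold of 0.01, and 0 to 1 when livers were left out singly (0 without KO:HOM animal 26 or 27 or KO:HET animal 7). For the difference of the homozygous effects it was 4, and 1 with all 48 livers. In KO:WT against DN:WT it was 6, and 3 with no filter on low counts, 2 at a threshold of 0.01, and 2 to 6 when livers were left out singly. Genes without overlap between DN:HOM and DN:WT numbered 3, and 0 with all 48 livers or 1 with library size alone, and between DN:HOM and DN:HET 1, and 0 with all 48 livers. The causes were not tested, beyond the smaller set of livers or the scaling that each alternative uses. Nr1h4, Nr1i3, Ppara, Rora and Thrb in DN:HOM against DN:WT, and Rora and Thrb in KO:HOM against KO:WT, passed in every fit that left out 1 liver. The lowest count of any receptor gene was 46 reads, for Ppard in KO:HET animal 3, one of the 2 livers of low depth.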

Other observations

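Beside the 9 genes, 32 of 40 other nuclear receptor genes could be tested. In DN:HOM against DN:WT 5 rose and 13 fell, with all 48 livers 4 rose and 10 fell, and with library size alone 17 rose and 3 fell. The first 2 counts lay near the background, since 59.1% of all genes passed in this comparison and 48% with all 48 livers. The library-size count rests on a scaling that moved the median of all genes to 0.42. Of all genes 70.1% then passed, 9283 of 11021 as higher. The following were chosen after their values were seen. Rarg, a retinoic acid receptor gene, rose by 1.78 on the log2 scale (edgeR's quasi-likelihood test, adjusted p = 2.14e-13; 1.39 with all 48 livers) in DN:HOM and by 0.58 (adjusted p = 0.00265) in KO:HOM. Nr4a1, an immediate-early orphan receptor gene, rose by 2.29 in DN:HOM (1.67 with all 48 livers), and its value in KO:HOM was 0.73 (adjusted p = 0.0917). Hnf4a, the hepatocyte identity receptor, had -0.15 (adjusted p = 0.259) in DN:HOM and -0.35 (adjusted p = 0.0137) in KO:HOM, and its DN:HOM value turned to 0.28 with library size alone. Nr1h2, which encodes LXRβ, had 0.12 (adjusted p = 0.153) in DN:HOM, and 0.55 with library size alone.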
